A study of Mus musculus with 24 samples.

Results

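The genes described here were 10 members of the Notch pathway and of the segmentation clock, chosen by name from the 35591 genes of the count table. They were the ligand genes Dll1, Dll3 and Jag1, the receptor genes Notch1, Notch2 and Notch3, the glycosyltransferase gene Lfng and the target genes Hes1, Hes7 and Hey1. Their poly(A) RNA was sequenced while male embryonic stem cells (mESCs) of the mouse turned into neuromesodermal progenitors (NMPs), which can give rise to both spinal cord and trunk mesoderm. There were 8 groups of 3 libraries: wt (Smchd1[fl/+]) and het (Smchd1[del/+]) lines, each at day 0, day 2, day 2.5 and day 3. Smchd1 encodes a chromatin protein involved in gene silencing, and the het lines were set against wt to ask what the loss of 1 copy of it from the cells themselves does to expression. All 6 lines were F1 hybrids. The mother was Castaneus, and the father was C57BL/6, Smchd1 del/fl and a carrier of MMTV-Cre (T/+), so the altered allele, floxed in wt and deleted in het, always came from the father and the mother was Smchd1+/+. Day 0 cells came from serum medium with LIF, after culture in 2i and LIF. From day 0 they were in N2B27 medium with basic FGF, and from day 2 the GSK3 inhibitor CHIR99021 was added to activate Wnt signalling. The sources used here do not say whether MMTV-Cre was present or active in the cells of a given line, and each line derived from 1 blastocyst. The same line was sampled on each of the 4 days, whereas a wt and a het line of the same number are different lines.

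Notch receptors are activated by Delta and Jagged ligands on the neighbouring cell, cut by gamma-secretase, and then act in the nucleus with RBPJ to switch on Hes and Hey genes, which encode transcriptional repressors. In the presomitic mesoderm, the tissue that is segmented into somites, Hes7 and Lfng are transcribed in cycles set by this pathway, together with cyclic genes of the Wnt and FGF pathways. NMPs feed this tissue, and Tbx6 and Msgn1 are transcription factor genes of its early cells.

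Library totals were 7.10 to 20.8 M counts, and the smallest was wt day 2.5 line 2. Levels are given as CPM, counts per M counts of the library, scaled by TMM factors, and 3 counts, taken as the floor of a library, were 0.138 to 0.414 CPM. Smchd1 itself had a log2 fold change of het over wt of -0.61, -0.75, -0.60 and -0.88 at day 0, day 2, day 2.5 and day 3, and it passed the test at day 2 and day 3 (edgeR, adjusted p = 0.100, 0.00824, 0.907 and 0.0307). The NMP markers T, Nkx1-2 and Cdx2 lay at 159 to 358, 75.6 to 182 and 98.9 to 153 CPM over the 6 libraries of day 3, and the Sox2 level there was 31.5 to 54.5 CPM. At day 2 the same 3 markers lay at 0 to 1.44, 0.130 to 2.34 and 1.29 to 3.28 CPM, while Sox2 was at 46.1 to 85.5 CPM, a range that overlapped that of day 3. The paraxial mesoderm markers Tbx6, Msgn1, Meox1, Tcf15 and Pax3 together had 8.72 to 25.3 CPM at day 3, and the 5 neural markers together 3.73 to 8.24 CPM. RNA of most of 15 endoderm markers was present throughout, but Ttr was at 0 counts in all 6 libraries of day 0. The list held Sox17, Gata6 and Gata4 and also the matrix genes Lama1, Lamb1, Col4a1, Col4a2 and Sparc. Together the 15 had 2324 to 3882 CPM in wt and 1345 to 1947 CPM in het at day 0. At day 3 they had 5227 to 10390.4 and 3993 to 6587 CPM. The cells were measured in bulk, so fewer cells of a type and less RNA per cell cannot be told apart in any value below.

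Promoter windows from RefSeq (build GRCm38.p6, 250 bases before to 50 after a start site) were found for 8 of the 10 members, all but Hes1 and Hey1. They are shown for the cyclic genes Lfng and Hes7, which were the members with a match to the RBPJ core, and for Dll1, which had the widest range of levels across days among the ligands. Capitals mark matches on either strand to the RBPJ core TGGGAA, the N box CACNAG and the class C site CACGCG (both bound by Hes and Hey repressors), and the T-box core GGTGTG. A TCF/LEF core, CTTTGA, was searched too. The Lfng sequence stops at the first annotated exon, just before the RefSeq start, and the Dll1 sequence, that of the upstream of its 2 start sites, stops at that start. The Hes7 sequence is a 30-base stretch around its RBPJ match, because its window overlaps an exon of 9130213A22Rik on the other strand.
Lfng, chr5:140607091-140607319, plus strand: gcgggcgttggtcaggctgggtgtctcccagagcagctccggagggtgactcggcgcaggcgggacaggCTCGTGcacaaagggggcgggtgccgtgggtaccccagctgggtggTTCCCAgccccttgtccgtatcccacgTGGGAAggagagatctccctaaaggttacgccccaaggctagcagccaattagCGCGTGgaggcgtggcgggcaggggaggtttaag
Hes7, chr11:69120261-69120290, plus strand: tcctcccctcacTTCCCAcatttggggcta
Dll1, chr17:15376933-15377182, minus strand: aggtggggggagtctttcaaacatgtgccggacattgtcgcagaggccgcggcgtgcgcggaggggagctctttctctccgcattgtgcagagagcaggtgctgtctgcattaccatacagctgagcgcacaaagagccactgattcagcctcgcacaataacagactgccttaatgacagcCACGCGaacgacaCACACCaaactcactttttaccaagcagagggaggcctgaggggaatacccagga

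In the Lfng window the capitals mark, in order, an N box 181 bases before the start, RBPJ cores 135 and 108 bases before it, and a class C site 55 bases before it. In Hes7 the RBPJ core lay 180 bases before the start. In the Dll1 window shown, a class C site lay 68 bases and a T-box core 55 bases before the start, and no printed matches overlapped each other. Over all 32851 promoter windows of that length, 25.6% held an RBPJ core, 42.5% an N box, 9.27% a class C site, 16.0% a TCF/LEF core and 19.0% a T-box core. Among the 8 members with a window, 2 held an RBPJ core, 6 an N box, 5 a class C site, 1 (Jag1) a TCF/LEF core and 1 (Dll1) a T-box core. These matches are letters in a window and were not tested as binding sites.

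The first question was how the genes moved from one day to the next. Among the members tested in each step between days, the widest swing was that of Dll1, which fell 3.90-fold in wt and 5.79-fold in het from day 2, when CHIR99021 was added, to day 2.5, and was higher again at day 3. Notch1 fell and rose with it by less. Jag1 was lowest at day 2 and rose to day 2.5, and Hes1 climbed to its highest level at day 3. Hes7 had no counts in any library of day 0 and had at least 3 counts in all 6 libraries of day 3.

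A gene is said to rise or fall where the edgeR quasi-likelihood test gave an adjusted p under 0.05 over all genes tested. Changes between days are log2 fold changes of the later over the earlier day, and those between genotypes are of het over wt. From day 0 to day 2, 1 of the 9 members tested rose and 2 fell in wt, where 22.4% of all genes rose and 21.9% fell. In het 4 rose and 2 fell, where 28% of all genes rose and 28.1% fell. From day 2 to day 2.5, 1 rose and 2 fell in wt, against 14.6% and 14.5% of all genes. In het 2 rose and 5 fell, against 21.8% and 22.9%. From day 2.5 to day 3, 4 of 10 members rose and 0 fell in wt, against 8.99% and 10.1% of all genes. In het 6 of 10 rose and 0 fell, against 13.8% and 16% of all genes.

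The median log2 fold change of the members over this last step was 0.94 in wt and 0.78 in het, and that of all genes tested was 0.00 and -0.02. Over the step from day 2 to day 2.5 the members' medians were -0.36 in wt and -0.50 in het, and those of all genes were 0.00 and 0.01. The count of calls differed between the genotypes, but 0 of the members had a different change in het than in wt by the test of genotype with day (edgeR interaction), in any of the 3 steps. The share of all genes called by that test was 0%, 0% and 0%. The number of members with an unadjusted p under 0.05 in it was 1 (Notch2), 1 (Notch2) and 0, where 6.31%, 5.13% and 3.85% of all genes had one. DESeq2 called 0 members in each, and 0.0366%, 0% and 0% of all genes.

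**Figure D1:**
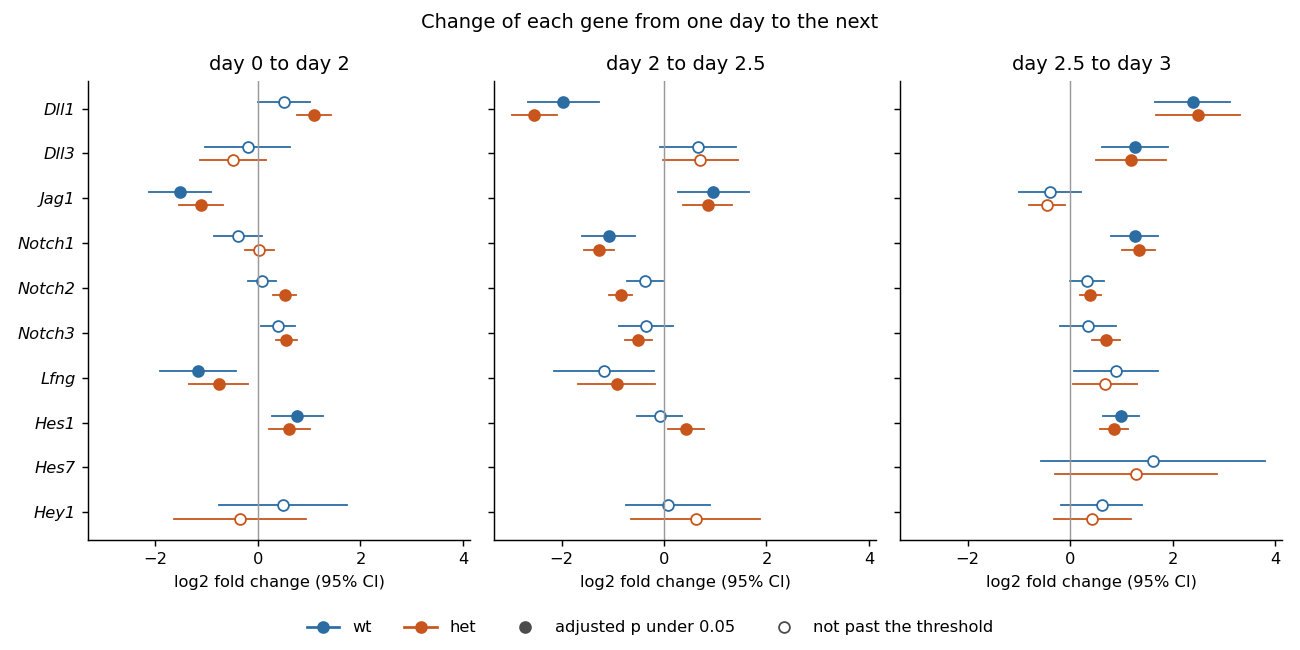
Log2 fold change (x axis) of the 10 genes (y axis) for each step between days, in wt (blue) and het (orange), with 95% confidence intervals; filled circles passed the edgeR test at an adjusted p under 0.05, and Hes7 was tested only in the last step. Dll1 and Notch1 lie left of 0 in the middle panel and right of 0 in the last one, and Jag1 lies right of 0 in the middle panel.

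Dll1 (ENSMUSG00000014773, GRCm38 chromosome 17, 15367354 to 15376872, minus strand) encodes a Delta ligand that activates Notch receptors on neighbouring cells and is needed for somite formation. In wt it had 11.0, 14.1 and 10.8 CPM in lines 1 to 3 at day 0, 19.9, 11.7 and 19.2 at day 2, 6.32, 3.59 and 2.94 at day 2.5 and 29.5, 24.1 and 14.6 at day 3. In het the levels were 10.9, 9.79 and 8.84 CPM at day 0, 19.7, 22.5 and 20.4 at day 2, 4.18, 2.71 and 4.04 at day 2.5 and 36.4, 12.9 and 13.7 at day 3. The 3 libraries of day 2.5 were the lowest of their genotype in both wt and het, and they overlapped with no other day. Dll1 fell from day 2 to day 2.5, with log2 fold changes of -1.96 ± 0.32 (SE, adjusted p = 0.000738) in wt and -2.53 ± 0.20 (SE, adjusted p = 4.58e-07) in het, which was 3.90-fold and 5.79-fold lower. It then rose from day 2.5 to day 3 by 2.39 ± 0.33 (SE, adjusted p = 0.00169) in wt and 2.50 ± 0.38 (SE, adjusted p = 0.000700) in het, or 5.24-fold and 5.66-fold. Without het day 3 line 1, the highest of its group, the het value was 1.84 (adjusted p = 0.000270). From day 0 to day 2 it rose in het (1.09 ± 0.16, SE, adjusted p = 2.95e-05), and in wt the value was 0.51 ± 0.24 (SE, adjusted p = 0.0984), where without wt day 2 line 2, the lowest of its group, it was 0.71 with an adjusted p of 0.0211. Exons of Dll1 share 867 bases with exons of the antisense gene A930024N18Rik, so without strand their reads cannot be told apart.

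Dll3 (ENSMUSG00000003436, GRCm38 chromosome 7, 28293553 to 28302238, minus strand) encodes a divergent Delta protein that does not activate Notch on neighbouring cells and is active in presomitic mesoderm. Its levels in wt lines 1 to 3 were 2.63, 4.36 and 5.20 CPM at day 0, 3.55, 3.67 and 3.28 at day 2, 7.75, 4.56 and 4.18 at day 2.5 and 17.2, 12.1 and 10.6 at day 3. The het lines 1 to 3 had 4.91, 4.58 and 5.07 CPM at day 0, 3.96, 3.40 and 2.94 at day 2, 7.12, 3.13 and 6.87 at day 2.5 and 18.6, 9.38 and 11.9 at day 3. At day 3 every library of both genotypes lay above every library of the earlier days of its genotype. Dll3 rose from day 2.5 to day 3 by 1.27 ± 0.29 (SE, adjusted p = 0.0143) in wt and by 1.19 ± 0.31 (SE, adjusted p = 0.0137) in het. Over the step to day 2.5 the values were 0.66 ± 0.35 (SE, adjusted p = 0.174) in wt and 0.71 ± 0.34 (SE, adjusted p = 0.108) in het, and over the first step -0.20 ± 0.39 (SE, adjusted p = 0.705) and -0.49 ± 0.30 (SE, adjusted p = 0.181), none of them past the threshold. The wt rise lost its call without wt day 2.5 line 2 (1.17, adjusted p = 0.0593) or without wt day 3 line 1 (1.04, adjusted p = 0.0508), and the het change of the middle step passed without het day 2.5 line 2 (1.00, adjusted p = 0.0265).

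Jag1 (ENSMUSG00000027276, GRCm38 chromosome 2, 137081456 to 137116644, minus strand) encodes a Jagged ligand, the other family of activating ligands. The wt lines 1 to 3 stood at 24.5, 20.4 and 16.9 CPM at day 0, 9.17, 8.31 and 3.98 at day 2, 17.2, 14.9 and 9.77 at day 2.5 and 14.4, 9.09 and 8.04 at day 3. For het lines 1 to 3 it was 20.8, 18.1 and 20.6 CPM at day 0, 11.0, 9.83 and 6.33 at day 2, 13.7, 16.0 and 20.3 at day 2.5 and 13.6, 11.3 and 12.3 at day 3. Levels were highest at day 0 and lowest at day 2 in all 6 lines, with het line 3 at day 2.5 nearly back at its day 0 level. Jag1 fell from day 0 to day 2, with log2 fold changes of -1.52 ± 0.29 (SE, adjusted p = 0.000625) in wt and -1.11 ± 0.20 (SE, adjusted p = 0.000197) in het. It rose from day 2 to day 2.5 by 0.96 ± 0.32 (SE, adjusted p = 0.0394) in wt and 0.85 ± 0.22 (SE, adjusted p = 0.00629) in het. The wt rise rested on single libraries, since the adjusted p was 0.0591 without wt day 2 line 2, 0.134 without wt day 2 line 3, 0.121 without wt day 2.5 line 1 and 0.104 without wt day 2.5 line 2. From day 2.5 to day 3 the values were -0.40 ± 0.28 (SE, adjusted p = 0.345) in wt and -0.45 ± 0.16 (SE, adjusted p = 0.0546) in het, and the latter passed without het day 2.5 line 1 (-0.57, adjusted p = 0.0341).

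**Figure D2:**
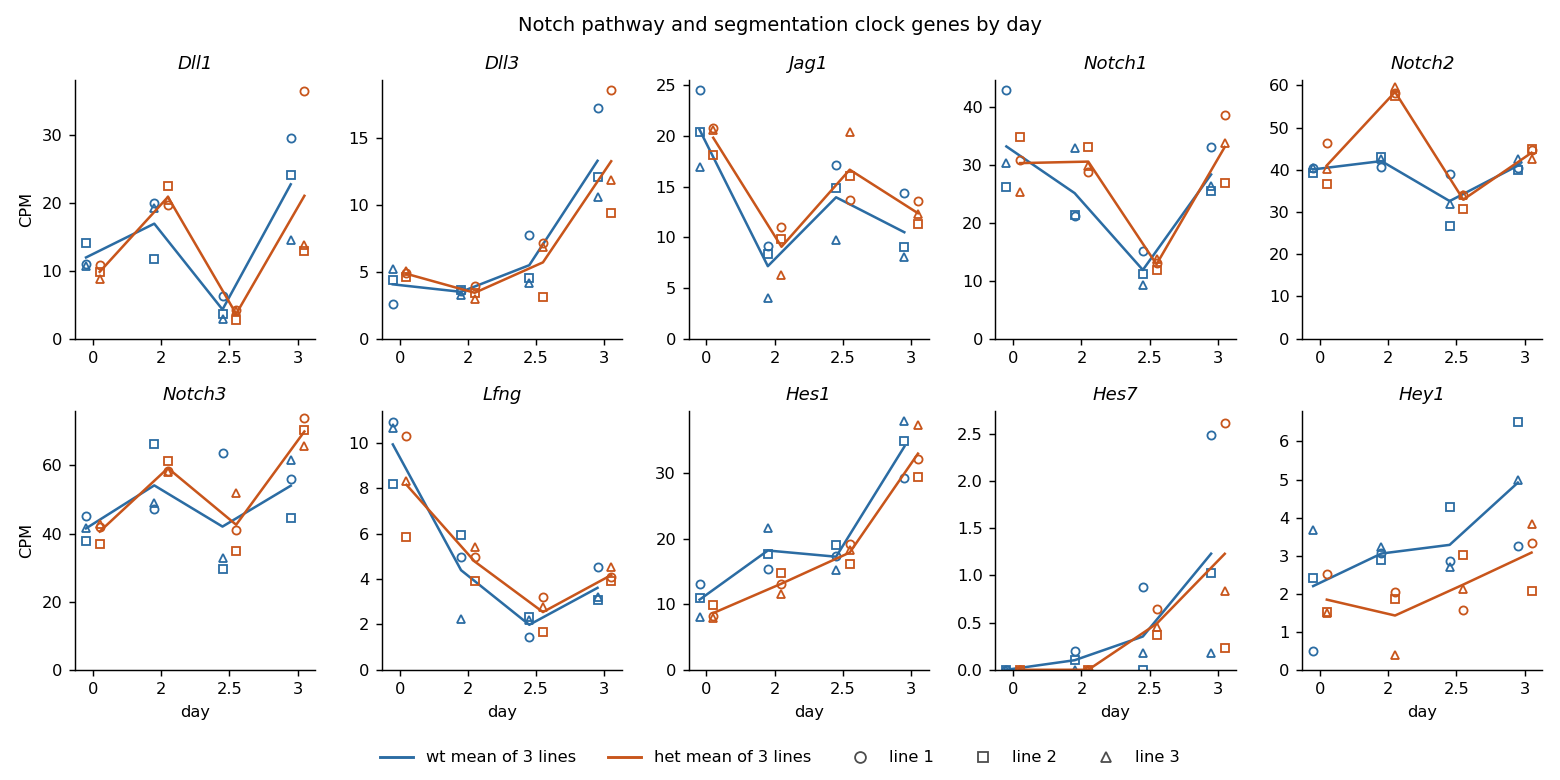
CPM (y axes, each from 0) of the 10 genes at day 0, day 2, day 2.5 and day 3 (x axes, evenly spaced), with 1 symbol per line in wt (blue) and het (orange) and lines through the group means. Dll1 and Notch1 dip at day 2.5, Jag1 dips at day 2, Dll3 and Hes1 are highest at day 3, and Hes7 is at 0 at day 0.

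Notch1 (ENSMUSG00000026923, GRCm38 chromosome 2, 26457903 to 26516663, minus strand) encodes the receptor required for somite boundaries. In wt it had 43.0, 26.2 and 30.4 CPM in lines 1 to 3 at day 0, 21.2, 21.4 and 32.9 at day 2, 15.2, 11.2 and 9.24 at day 2.5 and 33.1, 25.6 and 26.4 at day 3. In het the levels were 30.9, 34.8 and 25.3 CPM at day 0, 28.8, 33.1 and 29.8 at day 2, 13.1, 11.8 and 13.7 at day 2.5 and 38.7, 26.9 and 33.8 at day 3. Day 2.5 was the lowest day in all 6 lines. Notch1 fell from day 2 to day 2.5, with log2 fold changes of -1.08 ± 0.24 (SE, adjusted p = 0.00505) in wt and -1.27 ± 0.14 (SE, adjusted p = 6.83e-06) in het. It rose again from day 2.5 to day 3 by 1.26 ± 0.21 (SE, adjusted p = 0.00336) and 1.34 ± 0.15 (SE, adjusted p = 0.000135). Over the first step the values were -0.39 ± 0.22 (SE, adjusted p = 0.158) in wt and 0.02 ± 0.13 (SE, adjusted p = 0.899) in het, and in wt it passed without wt day 2 line 3 (-0.64, adjusted p = 0.0382). Its exons share 1482 bases with those of 0610009E02Rik and Gm13568, which lie on the other strand.

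Markers of cell types are set beside the dip of Dll1 and Notch1 here. The summed level of the 5 paraxial mesoderm markers in wt was 7.70 to 9.96 CPM at day 2, 3.73 to 6.77 CPM at day 2.5 and 10.8 to 25.3 CPM at day 3, lowest at day 2.5 and without overlap between these days. In het it was 4.63 to 11.2, 3.93 to 5.0 and 8.72 to 25.2 CPM, where day 2 overlapped with both day 2.5 and day 3. Msgn1 of that list was at 0 counts in all 6 libraries of day 2, and Tcf15, a somite gene, had 8.34, 9.37 and 7.66 CPM at day 2 and 2.91, 2.35 and 5.77 CPM at day 2.5 in wt. The 4 markers of epiblast-like cells together had 1219 to 1358 CPM at day 2 and 386 to 479 CPM at day 2.5 in wt, and 1321 to 1416 and 351 to 439.8 CPM in het. For the 5 neural markers the sums were 23.8 to 34.7 CPM at day 2 and 8.97 to 10.1 CPM at day 2.5 in wt, where Neurog2 was at 0 counts, and 29.4 to 35.0 and 7.52 to 11.2 CPM in het. Both lists were lower still in their group means at day 3, with sums of 144 to 266 CPM and 3.73 to 8.24 CPM over the 6 libraries. The 5 NMP markers went the other way, with 48.7 to 91.2 CPM at day 2 and 642 to 1241 CPM at day 2.5. The part of these lists in the levels of Dll1 and Notch1 was not tested.

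Notch2 (ENSMUSG00000027878, GRCm38 chromosome 3, 98013527 to 98150361, plus strand) encodes another receptor of the family, with broad expression in the embryo. Its levels in wt lines 1 to 3 were 40.5, 39.3 and 40.5 CPM at day 0, 40.6, 43.0 and 42.6 at day 2, 39.1, 26.8 and 31.9 at day 2.5 and 40.5, 40.1 and 42.5 at day 3. The het lines 1 to 3 had 46.4, 36.5 and 40.2 CPM at day 0, 58.1, 57.5 and 59.7 at day 2, 34.0, 30.8 and 34.0 at day 2.5 and 44.6, 45.0 and 42.5 at day 3. The 12 wt libraries lay between 26.8 and 43.0 CPM, and the 3 het libraries of day 2 lay above all the other 21. In het, Notch2 rose to day 2, fell to day 2.5 and rose to day 3, with log2 fold changes of 0.52 ± 0.11 (SE, adjusted p = 0.000625), -0.85 ± 0.10 (SE, adjusted p = 1.67e-05) and 0.39 ± 0.09 (SE, adjusted p = 0.00814). In wt the values of these steps were 0.08 ± 0.13 (SE, adjusted p = 0.663), -0.36 ± 0.16 (SE, adjusted p = 0.109) and 0.33 ± 0.15 (SE, adjusted p = 0.148). The last 2 of them passed without wt day 2.5 line 1, the highest of its group (-0.51, adjusted p = 0.0287, and 0.47, adjusted p = 0.0414). The interaction of genotype with the first step was 0.45 (95% confidence interval 0.12 to 0.78, adjusted p = 0.754), and Notch2 shares 541 exon bases with Gm42820.

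Notch3 (ENSMUSG00000038146, GRCm38 chromosome 17, 32120820 to 32166852, minus strand) encodes a receptor best known for its role in vascular smooth muscle. The wt lines 1 to 3 stood at 45.2, 37.9 and 41.5 CPM at day 0, 47.4, 66.2 and 48.9 at day 2, 63.6, 29.7 and 32.9 at day 2.5 and 56.0, 44.6 and 61.5 at day 3. For het lines 1 to 3 it was 42.1, 36.9 and 42.7 CPM at day 0, 58.3, 61.2 and 58.1 at day 2, 40.9, 34.8 and 52.0 at day 2.5 and 73.8, 70.4 and 65.7 at day 3. At day 2.5, wt line 1 stood apart at 63.6 CPM from the other wt lines of that day, while the het lines of day 2.5 lay between. In het, Notch3 rose to day 2, fell to day 2.5 and rose to day 3, with log2 fold changes of 0.55 ± 0.10 (SE, adjusted p = 0.000207), -0.50 ± 0.13 (SE, adjusted p = 0.00541) and 0.69 ± 0.12 (SE, adjusted p = 0.00195). In wt the steps were 0.39 ± 0.15 (SE, adjusted p = 0.0525), -0.36 ± 0.25 (SE, adjusted p = 0.301) and 0.36 ± 0.25 (SE, adjusted p = 0.340). Without wt day 2.5 line 1 the last 2 became -0.78 (adjusted p = 0.00618) and 0.78 (adjusted p = 0.00769), and the first step passed without wt day 0 line 1 (0.46, adjusted p = 0.0419) or wt day 2 line 1 (0.47, adjusted p = 0.0425). That library, wt day 2.5 line 1, also had the highest T (451 CPM), Axin2 (197 CPM) and Nkd1 (88.0 CPM) levels of its day. It had the highest sums of the pluripotency (1013 CPM), epiblast-like (479 CPM) and NMP markers (1241 CPM) and the lowest endoderm sum (5256 CPM) too. Its sums for the other marker lists were neither the highest nor the lowest. The part of these in the Notch3 value was not tested. Notch3 shares 488 exon bases with the antisense gene Gm17276.

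Lfng (ENSMUSG00000029570, GRCm38 chromosome 5, 140607320 to 140615545, plus strand) encodes a glycosyltransferase that adds sugar to Notch receptors and alters their response to ligands, and it is a cyclic gene of the clock. In wt it had 10.9, 8.20 and 10.7 CPM in lines 1 to 3 at day 0, 4.98, 5.96 and 2.24 at day 2, 1.43, 2.35 and 2.18 at day 2.5 and 4.55, 3.07 and 3.23 at day 3. In het the levels were 10.3, 5.85 and 8.32 CPM at day 0, 4.98, 3.93 and 5.42 at day 2, 3.19, 1.67 and 2.78 at day 2.5 and 4.09, 3.91 and 4.53 at day 3. Levels were highest at day 0 and lowest at day 2.5 in both groups' means. Lfng fell from day 0 to day 2, with log2 fold changes of -1.17 ± 0.35 (SE, adjusted p = 0.0137) in wt and -0.77 ± 0.27 (SE, adjusted p = 0.0240) in het. From day 2 to day 2.5 it fell in het (-0.92 ± 0.35, SE, adjusted p = 0.0450), and the wt value was -1.17 ± 0.45 (SE, adjusted p = 0.0676). From day 2.5 to day 3 all 6 lines had more Lfng, but the values, 0.89 ± 0.37 (SE, adjusted p = 0.118) in wt and 0.69 ± 0.28 (SE, adjusted p = 0.0890) in het, did not pass. At these low counts (17 to 65 per library at day 2.5) the het calls depended on single libraries. The first step lost its call without het day 0 line 1 (-0.57, adjusted p = 0.160), het day 0 line 3 (adjusted p = 0.0708) or het day 2 line 2 (adjusted p = 0.0665). The middle step lost it without any library of het but day 2 line 2 (adjusted p of 0.0931 without day 2 line 1, 0.0948 without day 2 line 3, and 0.0502, 0.163 and 0.0832 without day 2.5 line 1, 2 and 3), and the wt value passed without wt day 2 line 3 (-1.49, adjusted p = 0.0286).

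Hes1 (ENSMUSG00000022528, GRCm38 chromosome 16, 30064384 to 30067796, plus strand) encodes a repressor that is a direct Notch target in many tissues and is present in pluripotent cells too. Its levels in wt lines 1 to 3 were 13.1, 11.0 and 8.08 CPM at day 0, 15.3, 17.6 and 21.7 at day 2, 17.4, 19.1 and 15.3 at day 2.5 and 29.3, 34.9 and 38.0 at day 3. The het lines 1 to 3 had 8.20, 9.92 and 7.86 CPM at day 0, 13.1, 14.7 and 11.6 at day 2, 19.3, 16.2 and 18.3 at day 2.5 and 32.2, 29.4 and 37.3 at day 3. The day 3 libraries lay above all libraries of the other days. Hes1 rose from day 2.5 to day 3 by 0.99 ± 0.16 (SE, adjusted p = 0.00332) in wt and 0.86 ± 0.13 (SE, adjusted p = 0.000603) in het, or 1.99-fold and 1.81-fold. It rose from day 0 to day 2 by 0.77 ± 0.23 (SE, adjusted p = 0.0143) in wt and 0.61 ± 0.19 (SE, adjusted p = 0.0116) in het. From day 2 to day 2.5 it rose in het (0.42 ± 0.16, SE, adjusted p = 0.0478), while the wt value was -0.09 ± 0.20 (SE, adjusted p = 0.786). The het rise of the middle step was not called with the line as a replicate block (0.43, adjusted p = 0.0605), nor without het day 2 line 1 (adjusted p = 0.0895), het day 2 line 3 (0.123), or het day 2.5 line 1 (0.150), line 2 (0.0576) or line 3 (0.0997). The rise of the first step lost its call in wt without day 0 line 3 (0.58, adjusted p = 0.0897) or day 2 line 3 (0.62, adjusted p = 0.0795), and in het without day 0 line 1 (adjusted p = 0.0529) or day 0 line 3 (adjusted p = 0.0534).

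Hes7 (ENSMUSG00000023781, GRCm38 chromosome 11, 69120404 to 69124055, plus strand) encodes the repressor at the core of the mouse segmentation clock. It had 0 counts in each of the 6 libraries of day 0 and in the 3 het libraries of day 2, and wt day 2 had 4, 2 and 0 counts. At day 2.5 it had 16, 0 and 3 counts in wt lines 1 to 3 and 13, 7 and 9 counts in het, and at day 3 it had 54, 17 and 3 counts in wt and 51, 5 and 17 counts in het. In CPM the day 3 levels were 2.48, 1.02 and 0.183 in wt and 2.61, 0.236 and 0.837 in het, so that line 1 was the highest in both genotypes and the genotypes overlapped. The mean of day 3 was at least 6.34-fold higher than day 0 in wt and at least 6.66-fold in het, with day 0 set to the floor of 3 counts in each library. Without line 1 of day 3 these bounds were 3.11 and 2.91. Fitted for the step from day 2.5 to day 3, the values were 1.62 ± 0.99 (SE, adjusted p = 0.281) in wt and 1.29 ± 0.72 (SE, adjusted p = 0.202) in het, and Hes7 did not pass the count filter in the earlier steps. From day 2, with no counts in het, to day 2.5 the het mean was at least 2.63-fold higher, with day 2 set to the floor of 3 counts in each library. That step was called in het without a filter and in one fit of all 24 libraries, but a call against libraries all at 0 is not given here as a result. Hes7 shares 234 exon bases with the antisense gene 9130213A22Rik.

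Hey1 (ENSMUSG00000040289, GRCm38 chromosome 3, 8663359 to 8667256, minus strand) encodes a repressor of the related Hey family and is a Notch target in vessels and somites. In wt it had 0.500, 2.42 and 3.68 CPM in lines 1 to 3 at day 0, 3.06, 2.88 and 3.23 at day 2, 2.86, 4.28 and 2.71 at day 2.5 and 3.26, 6.50 and 5.0 at day 3. In het the levels were 2.51, 1.53 and 1.49 CPM at day 0, 2.04, 1.85 and 0.391 at day 2, 1.57, 3.03 and 2.12 at day 2.5 and 3.33, 2.07 and 3.84 at day 3. Most days overlapped, but day 2 ended just below the lowest level of day 3 in wt (3.23 and 3.26 CPM) and in het (2.04 and 2.07 CPM). No step passed the test, and the fold changes were 0.49, 0.08 and 0.62 in wt and -0.35, 0.62 and 0.43 in het on the log2 scale. The counts were 6 to 108 per library, and the 95% confidence interval of the first wt step ran from -0.77 to 1.75.

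To compare genes with each other, CPM was divided by the merged length of all annotated exons of the gene in kilobases (RPKM). For Notch1 this was 14.2 kb, though its longest transcript held only 9414 stretches of 75 bases. For Notch2 it was 10.8 kb and 10426 stretches. The order below, with the gap between Notch2 and Notch1, depends on this length, and another was not tried. At day 0 the order of the mean RPKM over 6 libraries ran from Notch3 (5.08) over Hes1 (4.75), Notch2 (3.76), Lfng (3.61), Jag1 (3.47), Dll1 (2.58), Notch1 (2.23), Dll3 (1.56) and Hey1 (0.619) to Hes7 (0), and every gene but Hey1 and Hes7 overlapped in range with the next. At day 3 Hes1 stood first at 16.5 ± 1.88 RPKM (SD, n = 6) and did not overlap with Notch3, the next, at 7.67 ± 1.31 RPKM. Dll1 (5.18 ± 2.31 RPKM), Dll3 (4.66 ± 1.31) and Notch2 (3.94 ± 0.189) followed, each overlapping with its neighbours in that sequence. Notch1 (2.16 ± 0.369 RPKM), Jag1 (1.96 ± 0.426), Lfng (1.56 ± 0.252), Hey1 (1.22 ± 0.474) and Hes7 (0.679 ± 0.593) formed the lower end, and the range of Notch2 did not reach that of Notch1. Dll3 therefore moved from the eighth to the fourth place, with 1.56 RPKM at day 0 and 4.66 RPKM at day 3.

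At day 3, 5 of the 10 members (Dll1, Dll3, Jag1, Notch1 and Hes7) were highest in line 1 of both wt and het, as were 16.7% of the 15686 genes tested. A shared number does not make these related lines. The other 5 were not. Lfng was highest in line 1 of wt only and Notch3 in line 1 of het only. Hes1 and Hey1 were lowest in line 1 of wt and highest in line 3 of het. Notch2 was highest in line 3 of wt and line 2 of het. Of the 5 paraxial mesoderm markers 2 had the same top line. Tbx6, at 10.1, 5.60 and 4.02 CPM in wt lines 1 to 3 and 8.65, 1.70 and 3.84 CPM in het, was also highest in line 1 of each. Msgn1, at 11.5, 9.27 and 3.29 CPM in wt and 13.3, 2.54 and 5.76 CPM in het, had the same order of lines as Hes7 in both genotypes. In wt the order of the lines for Dll1 and Dll3 was 1, 2, 3 as well, and in het Dll1 and Dll3 were lowest in line 2. The other 3 markers did not: Tcf15 was highest in line 3 of wt (3.29 CPM) and line 2 of het (4.10 CPM), Meox1 in line 2 and line 3, and Pax3 in line 1 and line 3, with Meox1 and Pax3 at 1.03 CPM or less. With 3 lines a group this is a description with no test, made after the values were seen.

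**Figure D3:**
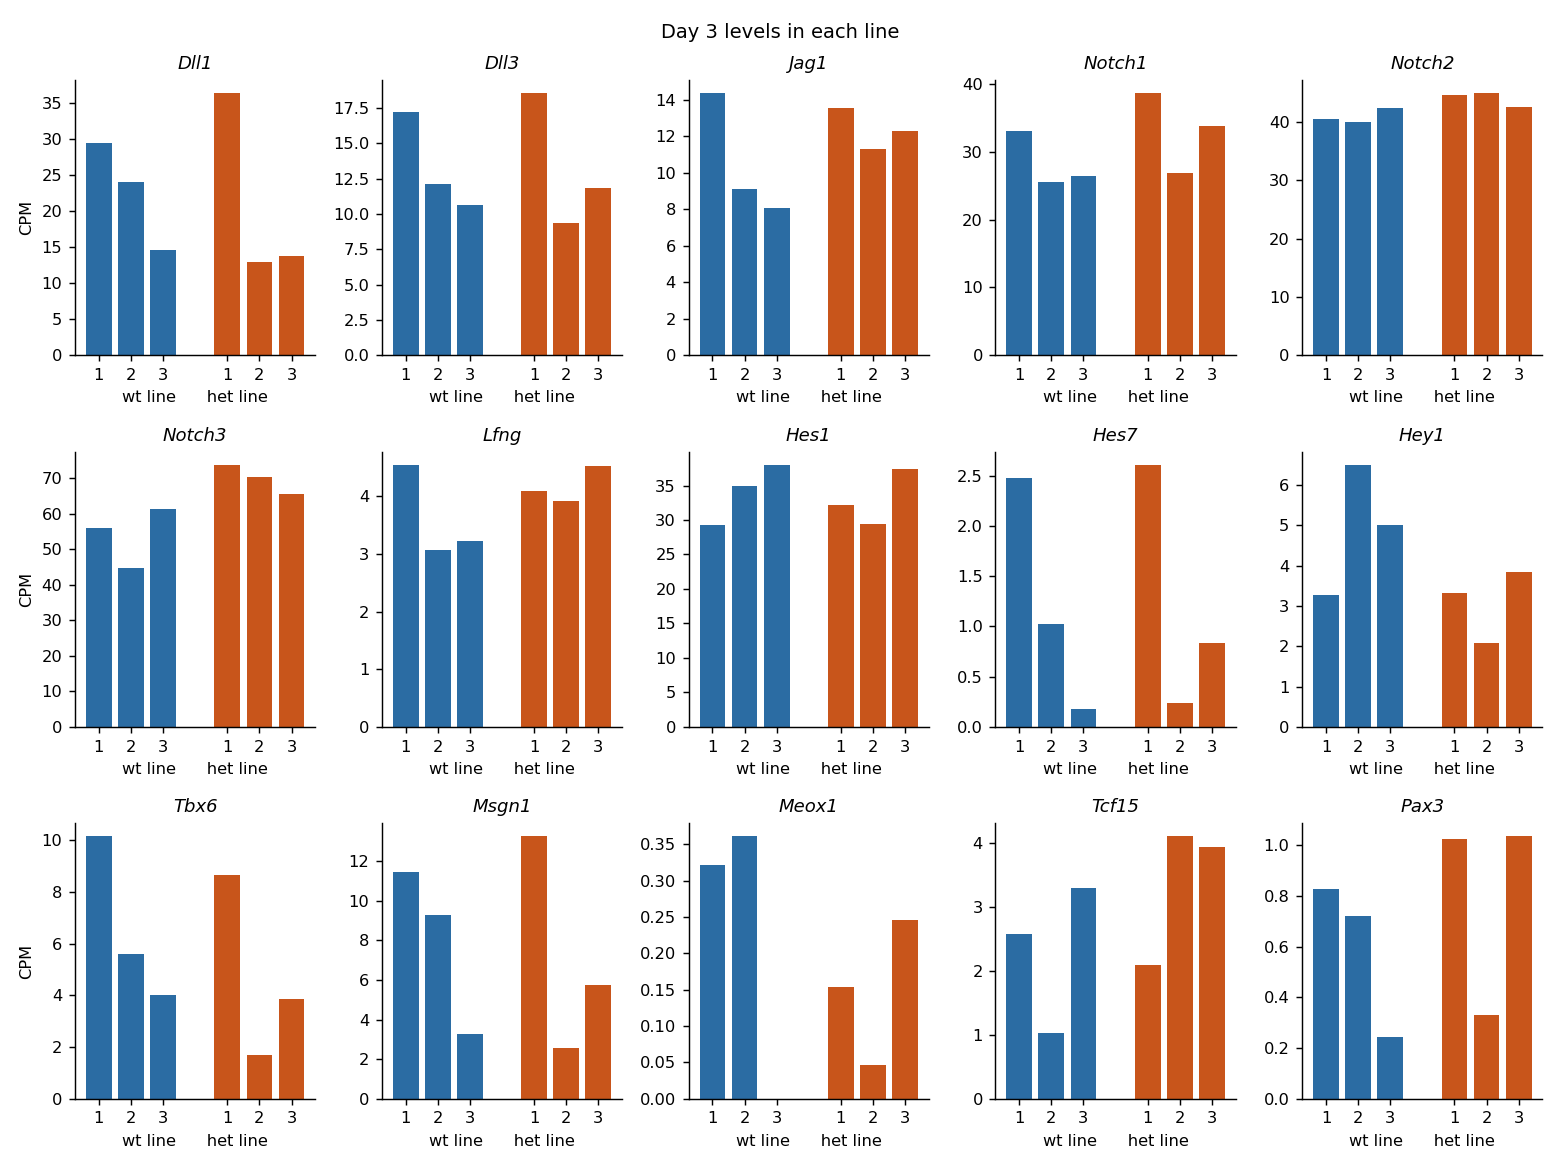
Day 3 CPM (y axes, each from 0) of the 10 members and the 5 paraxial mesoderm markers in each wt line (blue bars) and het line (orange bars), 1 library per bar and so no error bar. Line 1 is the highest bar of both genotypes for Dll1, Dll3, Jag1, Notch1, Hes7, Tbx6 and Msgn1, and not for the other 8 genes.

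The other question was whether the loss of 1 copy of Smchd1 alters these genes, for which het and wt were set side by side within a day. None of the members passed the test on any day. The counts were 0 of 9 tested at day 0, day 2 and day 2.5 and 0 of 10 at day 3 (edgeR), where 0%, 0.551%, 0% and 0.00638% of all genes passed. With the counts of a line summed over its 4 days it was 0 of 10, against 0.00544% of all genes. At an unadjusted p under 0.05 the members were 0, 2, 0, 1 and 1 in these comparisons, where 10.9%, 10.2%, 5.27%, 9.13% and 9.05% of all genes were. DESeq2 called 0, 1, 0, 0 and 0 members and 0.556%, 1.52%, 0.0192%, 0.740% and 0.789% of all genes. The median log2 fold change of the members was -0.15, 0.12, 0.05 and 0.04 at day 0, day 2, day 2.5 and day 3, and that of all genes tested lay at 0.00, 0.00, -0.01 and 0.00.

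Notch2 came nearest. At day 2 it had 40.6, 43.0 and 42.6 CPM in wt and 58.1, 57.5 and 59.7 CPM in het, so that the groups did not overlap. Its log2 fold change was 0.47 (95% confidence interval 0.22 to 0.71, adjusted p = 0.0871), and DESeq2 called it with an adjusted p of 0.0116, as did edgeR without a count filter with 0.0417. On the other days its log2 fold changes were 0.02, 0.01 and 0.09. Hes1 was lower in each het library of day 2 than in any wt library, with a log2 fold change of -0.48 (95% confidence interval -0.89 to -0.06, adjusted p = 0.405). Hey1 at day 2 had 3.06, 2.88 and 3.23 CPM in wt and 2.04, 1.85 and 0.391 CPM in het, again without overlap, and a log2 fold change of -1.10 (95% confidence interval -2.31 to 0.12, adjusted p = 0.554). Groups that did not overlap were found for 3 of the 9 members tested at day 2, against 16% of all genes tested, and for 2 of 10 at day 3 (Notch2 and Notch3), against 13.9%. At day 0 and day 2.5 it was 0 of 9, against 16.7% and 11.4% of all genes.

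Notch3 at day 3 lay at 56.0, 44.6 and 61.5 CPM in wt and 73.8, 70.4 and 65.7 CPM in het, a log2 fold change of 0.36 (95% confidence interval 0.11 to 0.62, adjusted p = 0.404). Hey1 was lower in het in the means of all 4 days, and on summed counts its log2 fold change was -0.61 (95% confidence interval -1.05 to -0.17, adjusted p = 0.446), which passed without wt line 1 (-0.78, adjusted p = 0.0472). For the cyclic genes the intervals were wide: at day 3 Hes7 had a log2 fold change of -0.05 (95% confidence interval -1.93 to 1.82, adjusted p = 0.992) and Lfng one of 0.19 (95% confidence interval -0.38 to 0.77, adjusted p = 0.868). Dll1 at day 3 had a log2 fold change of -0.13 (95% confidence interval -0.93 to 0.67, adjusted p = 0.939) and Dll3 one of -0.02 (95% confidence interval -0.58 to 0.54, adjusted p = 0.988). The summed level of the 15 endoderm markers is set beside these values and was not tested. At day 2 it was 7536 to 15399.6 CPM in wt and 4567 to 6354 CPM in het. Of the 15 markers, 14 were lower in het on average and 0 were at 0 counts in a whole group. At day 3, 15 of 15 were lower in het on average, and the sums of the genotypes overlapped. The 5 endothelial markers, of a tissue where Notch and Hey1 are active, together had 76.9 to 96.5 CPM in wt and 71.8 to 75.6 CPM in het at day 2, with 4 of 5 lower in het on average and none at 0. At day 0 their sums lay the other way without overlap, at 75.3 to 82.2 CPM in wt and 92.0 to 99.5 CPM in het. There 3 of 5 were lower in het on average, and at day 2.5 and day 3 the sums overlapped. The 6 trophoblast markers also had sums that did not overlap at day 2, at 254 to 302 CPM in wt and 204 to 249 CPM in het, with 3 of 6 lower in het. The sums of the other 6 lists overlapped at day 2, where 1 of 6 pluripotency, 1 of 4 epiblast-like, 2 of 5 NMP, 1 of 5 paraxial mesoderm, 2 of 5 neural and 1 of 4 fibroblast markers were lower in het on average.

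At day 3, the day on which Notch3 was higher in het without overlap, the 4 epiblast-like markers had sums of 144 to 188.09 CPM in wt and 188.38 to 266 CPM in het, again without overlap, and 0 of 4 were lower in het on average. The 5 neural markers, 0 of which were lower in het, had sums of 3.73 to 7.68 CPM in wt and 7.54 to 8.24 CPM in het, and the 6 pluripotency markers, 1 of which was lower, had 271 to 405 and 383 to 536 CPM, both with overlap. Of the remaining lists, whose sums overlapped as well, 2 of 5 NMP, 3 of 5 paraxial mesoderm, 3 of 6 trophoblast, 4 of 5 endothelial and 1 of 4 fibroblast markers were lower in het on average. No marker was at 0 counts in a whole group of day 3. The part of any of these lists in the values of Notch2, Hes1, Hey1 and Notch3 was not tested.

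**Figure D4:**
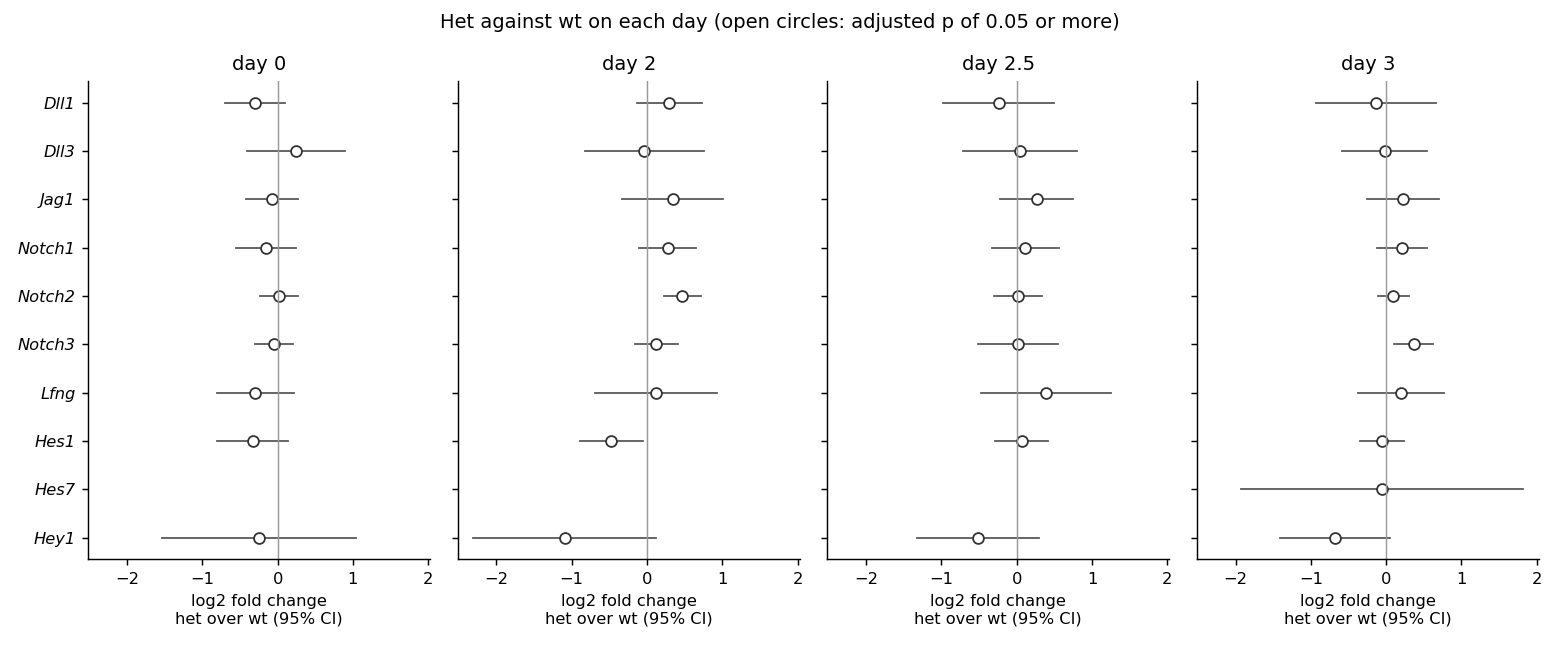
Log2 fold change of het over wt (x axes, 1 scale in the 4 panels) for the 10 genes (y axis) on each day, with 95% confidence intervals; open circles mark an adjusted p of 0.05 or more, and Hes7 was tested only at day 3. All circles are open, and the intervals that leave out 0 are those of Notch2 and Hes1 at day 2 and Notch3 at day 3.

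The other genes of the pathway and the clock were a list of 69, of which 54 to 64 passed the count filter in a comparison. None of them passed between het and wt on any day (edgeR), with 5 of 54, 6 of 57, 1 of 56 and 4 of 59 at an unadjusted p under 0.05 at day 0, day 2, day 2.5 and day 3, against the 10.9%, 10.2%, 5.27% and 9.13% of all genes. DESeq2 called 0, 0, 0 and 1 of them (Dusp6, a feedback gene of FGF signalling, at day 3), against 0.556%, 1.52%, 0.0192% and 0.740% of all genes. On summed counts it was 0 of 64 by edgeR, 4 of 64 at an unadjusted p under 0.05, against 9.05% of all genes, and 1 of 64 by DESeq2 (Snai1), against 0.789%. Dusp6 and Snai1 were named after their values were seen. From day 0 to day 2, 13 of 55 rose and 21 fell in wt, where 22.4% of all genes rose and 21.9% fell. In het 19 of 56 rose and 18 fell, against 28% and 28.1%. From day 2 to day 2.5, 15 of 56 rose and 9 fell in wt, against 14.6% and 14.5% of all genes. In het 15 of 58 rose and 12 fell, against 21.8% and 22.9%. From day 2.5 to day 3, 10 of 57 rose and 7 fell in wt, against 8.99% and 10.1%. In het 14 of 58 rose and 11 fell, against 13.8% and 16%. The median log2 fold change of the list over the 3 steps was 0.02, 0.05 and 0.06 in wt and 0.05, -0.02 and 0.11 in het, and that of all genes was 0.02, 0.00 and 0.00 in wt and 0.01, 0.01 and -0.02 in het. The genes named next passed in the same direction in both genotypes with a log2 fold change of at least 1 in size. Among the calls of the list, 1, 1 and 2 over the 3 steps in wt and 2, 3 and 1 in het had under 10 counts in each library of the lower day (0 of the members' calls did). Such a gene passed the count filter only through the day on which it was high, so for the named genes the counts are given in place of a fold change. The call outside the named genes was that of Hes5, a target gene, with 3, 0 and 1 counts at day 2.5 and 25, 22 and 20 at day 3 in wt. Msgn1 in wt, Dner in both genotypes and Ripply1 in wt failed the filter in the neighbouring step without their high day. Their calls are thus given without a fold change.

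In the nucleus, Rbpj, the DNA-binding partner of the cut receptor, had 154, 109 and 117 CPM at day 2 and 42.7, 38.9 and 52.0 CPM at day 2.5 in wt. In het it had 153, 162 and 181 CPM at day 2 and 46.5, 44.2 and 54.5 CPM at day 2.5. It fell over that step, with log2 fold changes of -1.51 ± 0.16 (SE, adjusted p = 3.6e-05) in wt and -1.79 ± 0.10 (SE, adjusted p = 1.08e-08) in het, beside the fall of Dll1 and Notch1. The groups of the 2 days did not overlap in either genotype. From day 0 to day 2 the coactivator gene Maml3 rose by 2.53 ± 0.38 (SE, adjusted p = 9.88e-05) in wt and 2.85 ± 0.41 (SE, adjusted p = 2.43e-05) in het, while Maml2 of the same family fell (-2.12 and -1.88). The corepressor genes Spen (-1.66 and -1.29) and Tle4 (-1.30 and -1.19) fell as well. Nrarp, a target gene that dampens the pathway, rose from day 2.5 to day 3 by 1.19 ± 0.35 (SE, adjusted p = 0.0372) in wt and 1.02 ± 0.33 (SE, adjusted p = 0.0381) in het.

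At the cell surface, the receptor gene Notch4 fell from day 0 to day 2, with log2 fold changes of -3.48 in wt and -3.25 in het. Dner, a gene for a ligand-like protein, was called higher at day 3 than at day 2.5 in both genotypes. At day 0 Dner had 46, 33 and 35 counts in wt lines 1 to 3 and 14, 25 and 25 in het, and at day 2 it had 0, 3 and 9 and 9, 0 and 0. Of the genes that add sugars to Notch, Poglut1 fell from day 0 to day 2 (-1.14 and -1.11) and Pofut1 rose from day 2 to day 2.5 (1.32 and 1.20). The gamma-secretase subunit gene Aph1b rose from day 0 to day 2 (2.29 and 2.86). Among the ubiquitin ligase genes, Mib2 fell (-1.78 and -1.27) and Dtx3 (1.15 and 1.04) and Dtx4 (1.51 and 1.42) rose in that step. Dtx1 (-1.31 and -1.66) and Neurl1b (-2.13 and -1.53) fell from day 2 to day 2.5.

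The Wnt arm of the clock moved most at day 2.5. Axin2, a feedback inhibitor of Wnt signalling, had 8.73, 6.12 and 5.67 CPM at day 2 and 197, 111 and 101 CPM at day 2.5 in wt. In het the levels went from 7.62, 9.18 and 6.72 CPM at day 2 to 124, 109 and 145 CPM at day 2.5. It rose by 4.31 ± 0.27 (SE, adjusted p = 2.36e-07) in wt and 3.98 ± 0.14 (SE, adjusted p = 1.39e-10) in het. The Wnt inhibitor genes Nkd1 (3.44 and 2.91) and Dkk1 (3.67 in wt) rose in the same step. From day 0 to day 2 these genes had parted, with Nkd1 higher (2.36 and 2.46) and Dkk1 lower (-2.11 in wt). In het lines 1 to 3, Dkk1 had 33, 47 and 44 counts at day 0, 3, 9 and 1 at day 2 and 218, 189 and 230 at day 2.5. Of the FGF arm, Spry4, a feedback inhibitor of FGF signalling, fell from day 2.5 to day 3 (-1.03 and -1.04).

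Among the genes of segment formation, Tbx6 rose from day 2.5 to day 3 by 2.71 ± 0.58 (SE, adjusted p = 0.00492) in het, and in wt lines 1 to 3 it had 7, 0 and 9 counts at day 2.5 and 221, 93 and 66 at day 3. Msgn1 had 17, 0 and 5 counts at day 2.5 and 250, 154 and 54 at day 3 in wt. In het it had 4, 2 and 3 counts at day 2.5 and 259, 54 and 117 at day 3. Pcdh8, a protocadherin gene of the presomitic mesoderm, had 9, 0 and 0 counts in wt and 0, 2 and 0 in het at day 2, and at day 2.5 it had 45, 12 and 14 counts in wt and 30, 17 and 39 in het. Ripply1, a repressor gene of forming somites, was called lower at day 2.5 than at day 2 in wt. In het Ripply1 had 47, 59 and 33 counts at day 2 and 1, 7 and 7 at day 2.5. Epha4, a receptor gene of somite boundaries, fell from day 0 to day 2 (-2.01 and -2.04). Of the 10 genes of this group only 3 to 6 passed the count filter in a step within a genotype, and Ripply2 stayed at or below 0.470 CPM in all 24 libraries.

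**Figure D5:**
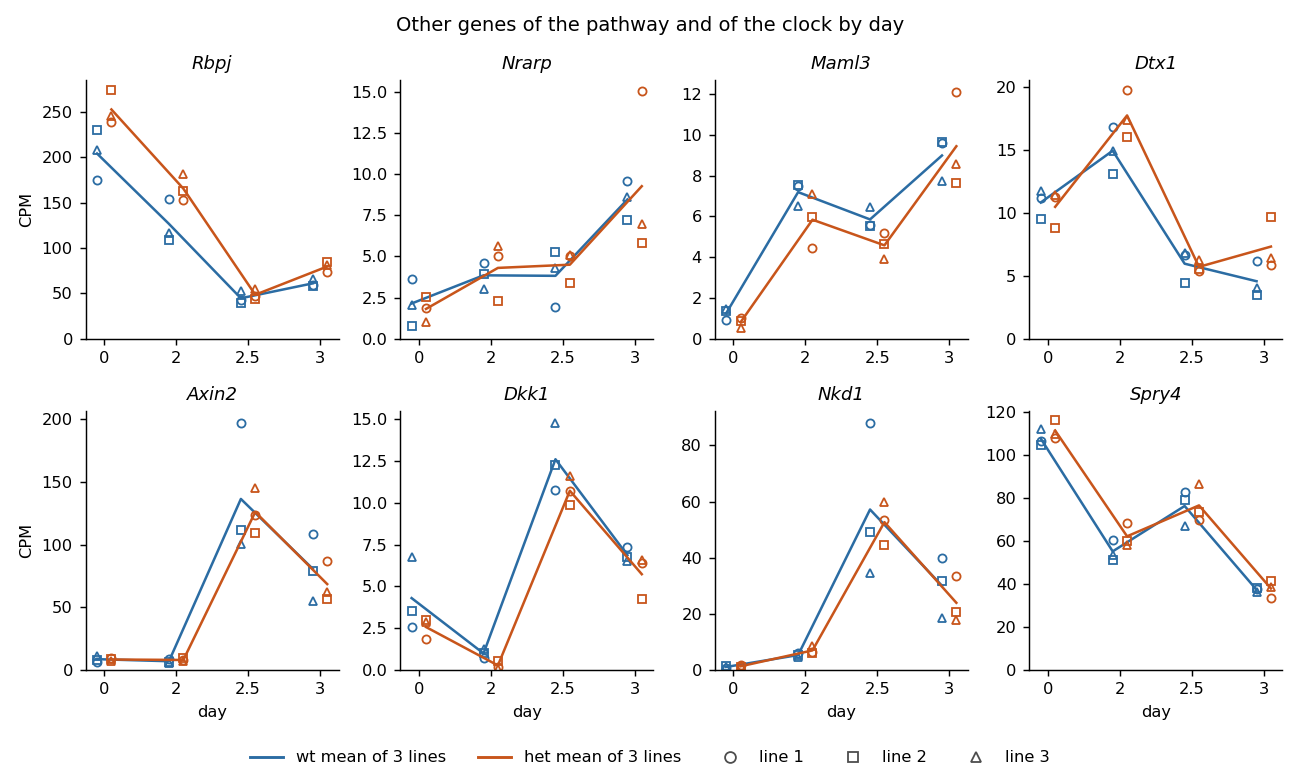
CPM (y axes, each from 0) of Rbpj, Nrarp, Maml3, Dtx1, Axin2, Dkk1, Nkd1 and Spry4 at day 0, day 2, day 2.5 and day 3 (x axes, evenly spaced), with 1 symbol per line in wt (blue) and het (orange) and lines through the group means. Axin2, Dkk1 and Nkd1 peak at day 2.5, the day on which Rbpj has its lowest group means.

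The genes most like each member were those with the highest Pearson correlation of log2 CPM over the 24 libraries, among the genes whose mean over the libraries was 50 counts or more (12456 genes for most members). The libraries share 6 lines and 4 days, so these values describe a shared time course. Hes1 was most like Nnat (r = 0.958) and Btg2 (0.936), Dll3 most like Pabpc1 (0.918) and Prickle1 (0.913), and Dll1 most like Mex3a (0.900) and Fxyd6 (0.882). Jag1 was most like Psmb2 (0.904) and Cnot11 (0.902). Notch1 was most like Cldn4 (0.904) and Nedd4 (0.867), Notch2 like Igsf9b (0.883) and Prrc2b (0.882), and Notch3 like Agap1 (0.869) and Cnksr3 (0.844). Lfng was most like Scube3 (0.896) and Alms1 (0.896), Hes7 like Arid3b (0.890) and Dock11 (0.889), and Hey1 like Fam122a (0.783) and Gpld1 (0.774). Among the members themselves, the 3 highest values of r were 0.835 between Dll1 and Notch1, 0.816 between Dll3 and Hes7 and 0.750 between Dll1 and Notch2. The 3 lowest were -0.528 between Lfng and Hes1, -0.435 between Lfng and Hes7 and -0.403 between Jag1 and Hes1. All values of r for Hes7 rest on levels near the floor. Its group means were 0 CPM at day 0 and 1.23 CPM at day 3 in both wt and het.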

How the data were processed

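RNA-seq libraries were prepared from poly(A) RNA of the 6 lines on 4 days. Per the labels and the study's methods, the authors trimmed reads with Trim Galore 0.4.4, aligned them with HISAT2 2.0.5 to GRCm38 and counted reads per gene in SeqMonk, and deposited raw counts for 24 libraries. Whether counting used strand is not given in the sources used here, so reads of overlapping antisense genes cannot be separated. Counts were tested with edgeR 4.0.16 (R 4.3.3) by the quasi-likelihood test, with TMM factors, a filter on low counts by group (filterByExpr) and Benjamini-Hochberg adjustment over all genes tested, in 14 comparisons: het against wt on each day and on counts summed over the days of a line, each step between days within a genotype, and the interaction of genotype with each step. Only the groups compared entered a fit. Log2 CPM used a prior count of 2, and intervals of fold changes are at the 95% level. The script was tested on simulated data.

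The 10 members were named in all comparisons. Of 69 other pathway genes, those called in both genotypes in the same direction with a log2 fold change of at least 1 in size were named, and for each member the 2 genes of highest correlation. Members, lists and tests were chosen with earlier results of these data known. Lists of cell type markers were set by hand. Lines are separate blastocysts, and the libraries of a line on successive days are the same line by the labels, so the line pairs the days within a genotype. Deviations from the group means correlated with r of -0.05 to 0.21 between successive days of a line (median 0.03). Alternatives were DESeq2 1.42.0, its size factors, library totals alone, other count filters, one fit of all 24 libraries, the line as a replicate block and leaving out each library. Sequences came from RefSeq promoter windows of GRCm38.p6.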

Additional observations from a re-analysis of the deposited data

How the results depend on the processing

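The count of members past the threshold between het and wt at day 2 was 0, and it was 1 without a filter beyond 1 count and 1 by DESeq2 (Notch2 in both), where the share of all genes went from 0.551% to 1.77% and 1.52%. On summed counts it was 0, and leaving out each line gave 0 to 1 (Hey1, without wt line 1, where 2.15% of all genes were called). From day 2 to day 2.5 in wt it was 3, and 5 in one fit of all 24 libraries, which added Notch2 and Lfng, while all genes went from 29.1% to 35.1%. Leaving out each library gave 2 to 4, 2 to 4 and 3 to 6 members called over the 3 steps in wt, where all genes ranged over 35.1% to 41.2%, 19.7% to 27.1% and 8.10% to 17.2%. In het it gave 4 to 6, 5 to 7 and 6 to 7, with 47.2% to 55.0%, 35.4% to 41.1% and 18.6% to 26.0% of all genes, and it gave 0 on each day between het and wt and for each interaction. With the line as a replicate block, the pairing of days, 6 members were called from day 2 to day 2.5 in het in place of 7 (without Hes1), with 43.6% of all genes in place of 44.7%, and the block changed no other call on a member.

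Of 41 fold changes of members that passed the count filter and were called in some fit, none changed sign under the alternatives. Hes7 from day 2 to day 2.5 in het, called without a filter and in one fit against libraries at 0, had no filtered value and is not among them. Of 1138 values of filtered fold changes never called, 78 had the other sign, 45 of them among the 562 between het and wt. Of 532 values under alternatives, 484 kept their side of the threshold, 26 lost it and 22 passed it. Beyond the libraries named above, Notch3 passed from day 0 to day 2 in wt with library totals alone (adjusted p = 0.0406), without a filter (0.0250) and by DESeq2 (0.0475). Lfng passed from day 2 to day 2.5 in wt without a filter (adjusted p = 0.0390) and with a mean of at least 50 counts (0.0480), and lost its call in het with library totals alone (0.0622). Hes1 lost its call from day 2 to day 2.5 in het without a filter (adjusted p = 0.0630), and Notch2 passed from day 2.5 to day 3 in wt in one fit of all 24 libraries (0.0448). The cause was not tested.

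Between het and wt the block pairs lines by number alone, and these are different lines, so that pairing is arbitrary. Over all genes, the number called between het and wt moved more: from 0 at day 0 to 369 without a filter, 84 by DESeq2, 25 with the block and 1 in one fit of all libraries; from 85 at day 2 to 384, 234, 131 (mean of at least 50 counts) and 23 (one fit); from 0 at day 2.5 to 87, 3 and 1 (one fit). At day 3 it moved from 1 to 274, 116, 100 (block) and 15 (one fit), and on summed counts from 1 to 190, 145 and 50 (block). From day 2.5 to day 3 in wt it was 2923, and 4687 with the block. Interactions had 0 and, without a filter, 58, 33 and 23, with 6, 0 and 0 by DESeq2 and 2, 0 and 0 with the block. Leaving out a library gave 0 to 68, 0 to 211, 0 to 3 and 0 to 93 at day 0 to day 3, 0 to 404 on summed counts and 1281 to 2721 from day 2.5 to day 3 in wt. Hes7, at 0 to 54 counts per library, and Hey1, at 6 to 108, set the limits of depth.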

Other observations

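Markers of the starting cells and of other cell types also moved with the days. The 6 pluripotency markers, Pou5f1 and Nanog among them, together had 2302 to 2540 CPM over the 6 libraries of day 0 and 271 to 536 CPM over those of day 3. The 4 markers of epiblast-like cells, among them Fgf5 and Otx2, had 976 to 1165 CPM at day 0, 1219 to 1416 CPM at day 2 and 144 to 266 CPM at day 3. The 5 NMP markers, Sox2 included, had 212 to 283 CPM at day 0, 48.7 to 91.2 CPM at day 2, 642 to 1241 CPM at day 2.5 and 463 to 827 CPM at day 3. The 5 neural markers were at 10.3 to 19.7 CPM at day 0 and highest at day 2, at 23.8 to 35.0 CPM, the day on which CHIR99021 was added.

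The 5 endothelial markers together had 42.5 to 99.5 CPM over all 24 libraries. The 6 trophoblast markers, which include Cdx2 of the NMP list, had 204 to 302 CPM at day 2 and 404 to 546 CPM at day 3. The 4 fibroblast markers, Col1a1, Col1a2, Col3a1 and Postn, had 1.24 to 5.82 CPM at day 0 and 16.8 to 40.5 CPM at day 3. These sums are given as values, and their part in the levels of the Notch genes was not tested.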
